A study of Mus musculus with 2 samples.

Results

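The genes described here encode factors that promote or restrain the release of paused RNA polymerase II (Pol II) into productive elongation. They were the P-TEFb subunits Cdk9, Ccnt1 and Ccnt2, the 7SK particle proteins Hexim1 and Larp7, the bromodomain protein Brd2, and Ell, Ell2 and Aff4 of the super elongation complex. Every probe set annotated to a single one of these 9 symbols was taken, which gave 22 of the 45037 probe sets of the array and 9 of the 18193 genes that had a probe set of their own. Mouse primary T cells were stimulated with antibodies against CD3 and CD28, either together with triptolide at 50 ng/ml or without it, and total RNA of each condition was hybridised to 1 Affymetrix array. Triptolide is a plant diterpenoid that binds the XPB subunit of the general transcription factor TFIIH. The purified cells were cultured for 18 h. The sources used here do not give the strain and age of the animals, the number of animals behind a sample or the length of the triptolide exposure. With 1 array per condition, no difference below has a replicate check and no p-value or SD between replicates is given.

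Pol II pauses shortly after initiation, held by the factors DSIF and NELF. P-TEFb, a kinase made of CDK9 and a T-type cyclin, phosphorylates these factors and the tail of the largest Pol II subunit, which lets the polymerase proceed. Much of the P-TEFb of a cell is kept inactive on the 7SK RNA, where HEXIM1 inhibits the kinase and LARP7 protects the RNA. Resting human T cells hold little active P-TEFb, and their activation is known to raise it.

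Signals are MAS5 values on a linear scale and carry no measure of RNA per cell. The first 100 probe sets had a 2% trimmed mean of 2000.0 on both arrays, so signals appear to be relative to those probe sets. Over all probe sets this mean was 339.7 with triptolide and 383.3 without. The median ratio and the share of lower genes given below therefore depend on that reference. A background floor of 118.39 was set from 87 probe sets of chemosensory receptor genes, which T cells are not expected to express. Signals under the floor were raised to it before a log2 ratio (triptolide over stimulated) was taken, and a fold with such a side is written as "at least". Each gene was read from its brightest probe set (mean log2 signal over the arrays) and called at a fold of 2. Of 10886 genes detected above the floor, 5.60% (610) were higher by a factor of 2 or more in the triptolide sample and 12.4% (1346) lower, and the median log2 ratio was -0.16. Of the 2-fold differences 68.8% were lower as deposited, against 58.0% with arrays centred on their median, 50.8% after quantile normalization and 81.7% when scaled on housekeeping genes. The spread between probe sets of a same gene served as a yardstick. In 3733 genes with 2 or more probe sets measured on both arrays (above the floor), the ratios of the brightest pair differed by a median of 0.37 and by up to 1.46 in 95% of genes, with an SD of 0.49 per probe set (log2). This spread holds no variation between cultures, animals, RNA preparations or hybridisations. Pairs compared below can include dimmer probe sets than the brightest pair of a gene. All 8 T cell markers with a probe set (Cd2, Cd3d, Cd3e, Cd3g, Cd4, Cd5, Cd8a and Thy1) lay above the floor on both arrays, with a summed signal of 36174 with triptolide and 51993 without. For B cell markers 5 of 7 lay above it on both arrays, with sums of 3233 with triptolide and 5123 without, and Pax5 was under the floor on both. For myeloid markers 3 of 8 did, with sums of 1260 with triptolide and 1204 without, and Cd14, Fcgr1 and Itgam were under the floor on both. Single markers went both ways within each list. Log2 ratios were above 0 for 2 and below 0 for 6 of the 8 T cell markers. They were above 0 for 1 and below 0 for 5 of 6 detected B cell markers, and for 4 and 1 of 5 detected myeloid markers. The part of these cell types in the results was not tested, and in bulk RNA fewer cells of a type and less RNA per cell cannot be told apart.

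With triptolide, Hexim1, Brd2 and Ell2 were at least 2-fold higher and Larp7 was at least 2-fold lower. The other 5 genes, Cdk9, Ccnt1, Ccnt2, Ell and Aff4, lay within 2-fold on the probe set that stood for them. The 3 of 9 higher genes compare with 5.60% of all detected genes, and the 1 of 9 lower genes with 12.4%, so the count of lower genes is close to that of the array as a whole. The median log2 ratio of the 9 genes was 0.40, against -0.16 over all detected genes. As the groups held 1 array each, these shares are a description and were not tested. The genes were also chosen with earlier results of these data known, so they are not an unselected set.

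**Figure D1:**
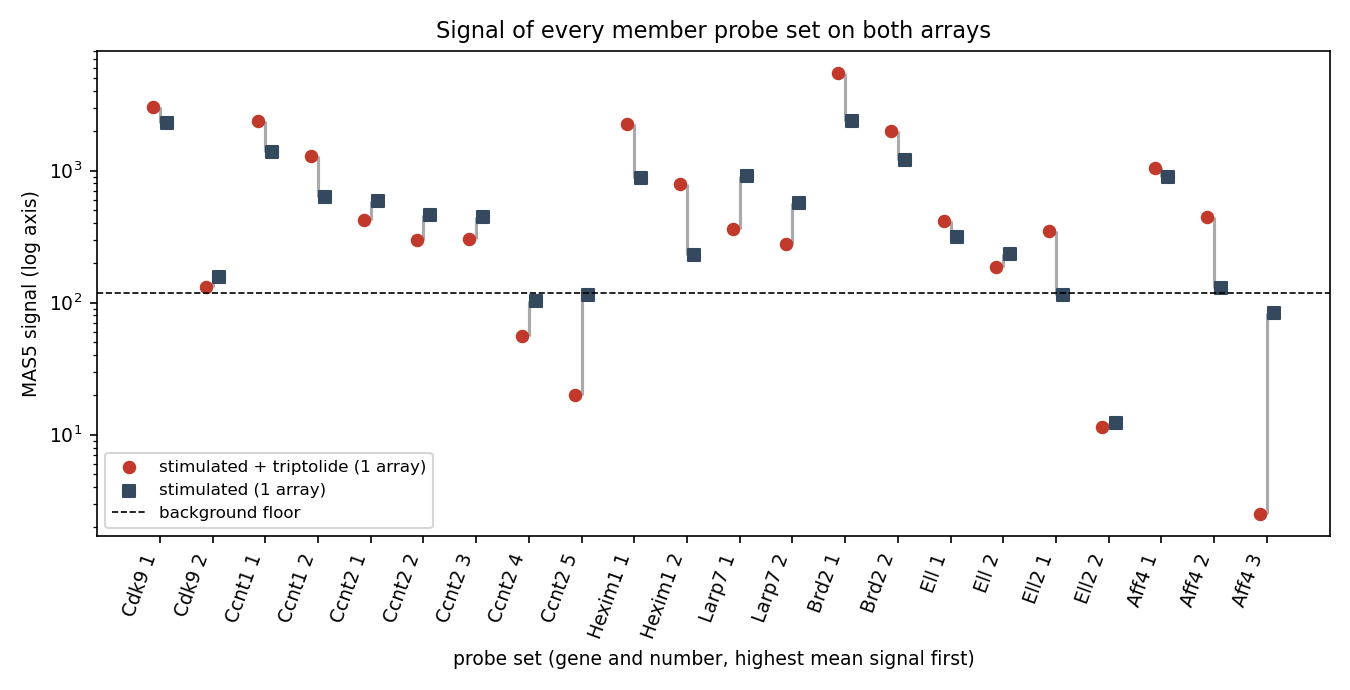
MAS5 signal (log axis) of each of the 22 probe sets on the array of stimulated cells with triptolide (circles) and on the array of stimulated cells (squares). A number after the gene ranks its probe sets by mean signal, the dashed line is the background floor of 118.39, and both Hexim1 probe sets are higher with triptolide while both Larp7 probe sets are lower.

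The promoters of 5 of these genes are shown because they include the partners whose ratios differed in sign, Hexim1 against Larp7 and Ccnt1 against Ccnt2, and Ell2, which was higher. Each has a single annotated start in the RefSeq promoter table (GRCm38.p6), and the 250 bases before that start are given 5′ to 3′ on the strand of the gene. The windows are chr11:103116075-103116324 on the plus strand for Hexim1, chr13:75707234-75707483 on the plus strand for Ell2, chr15:98567737-98567986 on the minus strand for Ccnt1, chr3:127553350-127553599 on the minus strand for Larp7 and chr1:127773914-127774163 on the plus strand for Ccnt2. Capitals mark matches on either strand to TATANA (the letters of a TATA box), GGGCGG (a GC box), CCAAT and TGACGTCA (a cyclic AMP response element), which overlap in places.
Hexim1: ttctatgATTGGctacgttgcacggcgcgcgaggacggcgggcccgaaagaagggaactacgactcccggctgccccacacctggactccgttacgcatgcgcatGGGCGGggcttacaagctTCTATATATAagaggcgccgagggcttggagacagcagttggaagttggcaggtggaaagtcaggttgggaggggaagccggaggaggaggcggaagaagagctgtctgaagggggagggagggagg
Ell2: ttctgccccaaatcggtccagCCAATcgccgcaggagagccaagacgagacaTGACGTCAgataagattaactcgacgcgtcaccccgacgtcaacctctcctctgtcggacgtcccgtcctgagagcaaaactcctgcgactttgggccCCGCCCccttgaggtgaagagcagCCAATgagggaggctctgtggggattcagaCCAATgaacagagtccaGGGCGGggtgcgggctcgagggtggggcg
Ccnt1: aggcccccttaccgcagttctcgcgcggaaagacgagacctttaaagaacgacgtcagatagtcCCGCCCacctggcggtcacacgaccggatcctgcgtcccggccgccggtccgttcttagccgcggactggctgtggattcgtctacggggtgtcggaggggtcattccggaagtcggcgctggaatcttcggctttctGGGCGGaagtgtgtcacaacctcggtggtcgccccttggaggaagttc
Larp7: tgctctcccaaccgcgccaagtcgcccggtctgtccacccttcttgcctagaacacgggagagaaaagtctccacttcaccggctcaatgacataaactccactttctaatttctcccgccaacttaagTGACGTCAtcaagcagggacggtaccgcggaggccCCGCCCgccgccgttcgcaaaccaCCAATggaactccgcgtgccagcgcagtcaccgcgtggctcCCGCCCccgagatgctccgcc
Ccnt2: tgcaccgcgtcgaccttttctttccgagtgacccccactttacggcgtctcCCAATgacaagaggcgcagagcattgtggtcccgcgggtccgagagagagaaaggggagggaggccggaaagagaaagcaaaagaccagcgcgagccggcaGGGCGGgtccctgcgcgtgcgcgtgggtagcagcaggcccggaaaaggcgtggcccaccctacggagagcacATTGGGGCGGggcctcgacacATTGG

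The Hexim1 promoter held 5 overlapping matches to TATANA in a single stretch, beginning 127 to 123 bases before the start. None of the other 8 genes had this match in any window, against 22.6% of the 32851 promoters in the table that held it. The element TGACGTCA stood in 2 of the 9 genes, Larp7 (121 bases before the start) and Ell2 (198 bases before it), against 1.55% of all promoters, and these genes had ratios of opposite sign. A GC box was found in 8 of 9 genes, against 32.7% of all promoters, and Aff4 had no match to any of the motifs. Brd2 has 3 annotated starts, of which 1 had a GC box. The GC content of the 11 windows of the 9 genes ran between 56.4% and 79.2%, and the median over all promoters was 52.4%. A match says only that these letters are present.

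Among the P-TEFb subunits, the cyclins Ccnt1 and Ccnt2 had ratios of opposite sign and the kinase lay between them. Ccnt1, which encodes cyclin T1, had a signal of 2361 with triptolide and 1376 without on its brighter probe set (1456477_at), a 1.72-fold difference. Its other probe set (1419313_at) had 1283 with triptolide and 630.3 without, a 2.04-fold difference. Both Ccnt1 probe sets were therefore higher on the triptolide array, with log2 ratios of 0.78 and 1.03, and only the dimmer passed 2-fold. Ccnt2 encodes cyclin T2, which can replace cyclin T1 as the partner of the kinase. Its 3 probe sets above the floor had 425.3, 296.7 and 301.7 with triptolide, against 584.3, 460.7 and 449.4 without. These log2 ratios of -0.46, -0.63 and -0.57 lay close together, and all 3 probe sets were lower with triptolide by less than 2-fold. The remaining 2 Ccnt2 probe sets were under the floor on both arrays, at 56.0 and 20.0 with triptolide and at 103.5 and 115.3 without, so no ratio is read from them.

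Cdk9, the catalytic subunit, had a signal of 3020 with triptolide and 2285 without on its brighter probe set, a log2 ratio of 0.40. A second Cdk9 probe set near the floor had 131.4 with triptolide and 156.4 without, a log2 ratio of -0.25. The probe sets differed in sign and neither was near 2-fold. Comparing partners within the same arrays cancels any single factor applied to a whole array. Ccnt1 exceeded Ccnt2 by 1.24 in log2 ratio on the probe sets that stood for them, a 2.36-fold shift in their relation. Over the 6 pairs of their probe sets the difference ran between 1.24 and 1.66, and 3 of the 6 lay beyond the 1.46 that covers 95% of probe set pairs of a single gene. Against Cdk9, the shift was 0.38 for Ccnt1 and -0.86 for Ccnt2, and no pair lay beyond that spread for either.

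The 7SK particle proteins were split more widely than the P-TEFb subunits. Hexim1, the inhibitor of P-TEFb, had a signal of 2250 with triptolide and 877 without on its brighter probe set (1425937_a_at), 2.57-fold higher. On the other probe set (1419359_at) it had 796.7 with triptolide and 227.8 without, 3.50-fold higher. With log2 ratios of 1.36 and 1.81, both probe sets passed 2-fold upwards, as did every measured probe set in 2.06% of the 3733 genes that had at least 2. By its representing probe set, Hexim1 ranked 301 of 10886 detected genes from the highest ratio.

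Larp7, which binds and stabilises 7SK RNA, had a signal of 363.3 with triptolide and 906.3 without on its brighter probe set (1429558_a_at), 2.49-fold lower. Its other probe set (1428310_at) had 280.2 with triptolide and 565.7 without, 2.02-fold lower. Both Larp7 probe sets thus passed 2-fold downwards, with log2 ratios of -1.32 and -1.01, which was so in 5.12% of the 3733 genes. Larp7 ranked 675 of 10886 from the lowest ratio. The relation of Hexim1 to Larp7 differed 6.40-fold between the arrays (2.68 in log2), whatever factor scaled them. Across their 4 pairs of probe sets this difference ran between 2.37 and 3.13, and all 4 lay beyond the 1.46 seen between probe sets of a single gene.

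The remaining protein of the 7SK core, the capping enzyme Mepce, had 1090 with triptolide and 651.1 without on its brightest probe set, a log2 ratio of 0.74. A second Mepce probe set had 154.2 with triptolide and 149.2 without (0.05), and the other was under the floor on both arrays. On the representing probe sets, Larp7 lay 2.06 below Mepce in log2 ratio and Hexim1 0.62 above it. Over 4 pairs of probe sets, Larp7 minus Mepce ran between -2.06 and -1.06, with 2 beyond 1.46. Hexim1 minus Mepce ran between 0.62 and 1.76 over 4 pairs, with 1 beyond 1.46. Hexim2, a paralogue of Hexim1 that can also inhibit P-TEFb, was at or near the floor: its brighter probe set had 100.2 with triptolide and 144.8 without, and its dimmer one 108.4 with triptolide and 31.3 without. No direction is given for Hexim2.

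**Figure D2:**
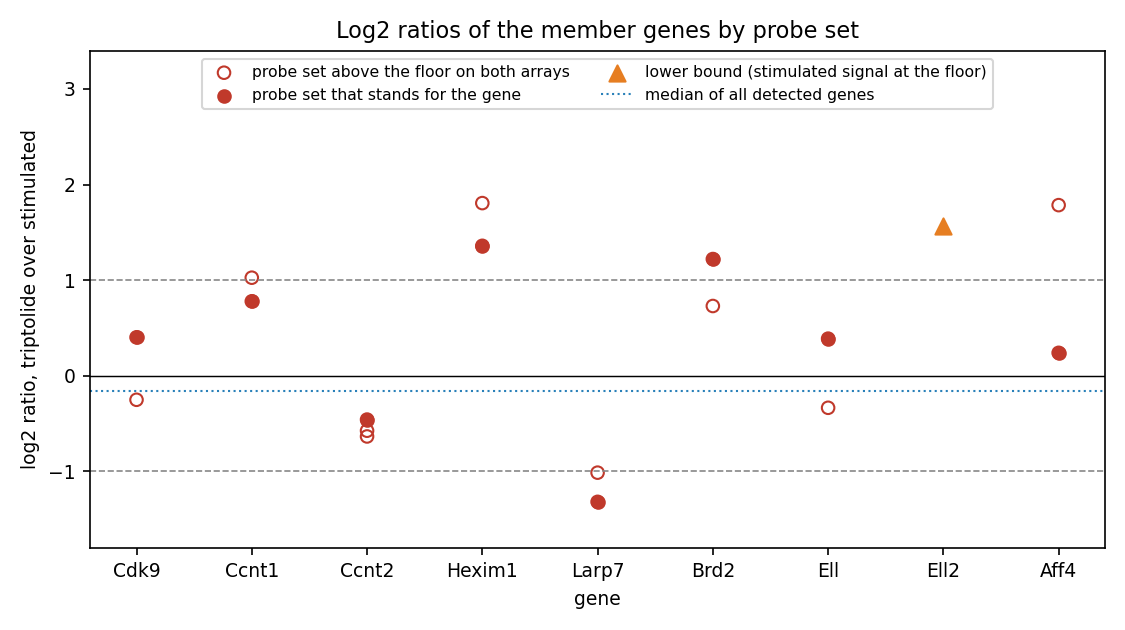
Log2 ratio (triptolide over stimulated) of the 9 genes, with a filled circle for the probe set that stands for the gene, open circles for its other probe sets that both arrays measured above the floor, and a triangle for a lower bound. The dashed lines mark 2-fold and the dotted line the median of all detected genes at -0.16; both circles of Hexim1 lie above the upper dashed line, both of Larp7 below the lower one, and those of Aff4 lie far apart.

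Brd2, a BET protein that binds acetylated histones at active promoters, had a signal of 5507 with triptolide and 2362 without on its brighter probe set (1437210_a_at), 2.33-fold higher. Its other probe set (1423502_at) had 2013 with triptolide and 1214 without, 1.66-fold higher. Both were higher on the triptolide array, with log2 ratios of 1.22 and 0.73, but the call of 2-fold rested on the first, whose name marks probes that match several transcripts of a gene. The BET paralogue Brd3 had ratios on both sides of 0 over its 4 probe sets, between -0.88 and 0.48. On the representing probe sets Brd2 exceeded Brd3 by 1.52 in log2 ratio, and over 8 pairs of probe sets the difference ran between 0.25 and 2.10, with 3 of them beyond 1.46. The testis BET gene Brdt was at or near the floor on both arrays.

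In the super elongation complex, Ell2 passed 2-fold upwards and Ell did not. Their difference was not set against the spread between probe sets, since no Ell2 probe set was above the floor on both arrays. Ell2 encodes an elongation factor that keeps Pol II from stalling and joins P-TEFb in this complex. Its brighter probe set (1450744_at) had 350.2 with triptolide and 114.7 without. As the stimulated signal is just under the floor, the gene was at least 2.96-fold higher. A second Ell2 probe set lay far below the floor on both arrays, at 11.4 with triptolide and 12.3 without. The Ell2 difference therefore rested on 1 probe set with 1 array at background level.

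Ell, the founding member of that family, had 414.4 with triptolide and 316.6 without on its brighter probe set and 184.8 with triptolide and 233.1 without on its dimmer one. These log2 ratios of 0.39 and -0.33 differed in sign and stayed within 2-fold. Aff4, the scaffold that holds the super elongation complex together, gave probe sets that disagreed in size. Its brightest probe set (1450031_at) had 1055 with triptolide and 893.6 without, a log2 ratio of 0.24, whereas a dimmer one (1420912_at) had 445.6 with triptolide and 129.3 without, a log2 ratio of 1.79 from a stimulated signal near the floor. The gap between them exceeded the 1.46 seen in 95% of probe set pairs, so only the sign is shared. The other Aff4 probe set was under the floor on both arrays, at 2.5 with triptolide and 82.8 without.

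Taken by agreement of probe sets, 8 of the 9 genes had 2 or more that both arrays measured above the floor. All measured probe sets were higher with triptolide for 4 of them (Ccnt1, Hexim1, Brd2 and Aff4), which held for 21.8% of the 3733 genes with at least 2. For 2 of them (Ccnt2 and Larp7) all were lower, which held for 41.4%. Cdk9 and Ell had probe sets of both signs. Ordered by the ratio of the representing probe set, Ell2 (at least 1.56), Hexim1 (1.36) and Brd2 (1.22) came first. Ccnt1 (0.78), Cdk9 (0.40), Ell (0.39) and Aff4 (0.24) followed, and Ccnt2 (-0.46) and Larp7 (-1.32) were last. Among the 8 genes measured on both arrays, no neighbours in this order differed by more than the 1.46 that covers 95% of probe set pairs, and the distance of Ell2 from Hexim1 has no upper limit. Relative to the median of all detected genes, Ccnt2 lay 0.30 below it and Cdk9 0.56 above it.

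The wider elongation machinery, 37 other genes listed by role with earlier results of these data known, was mostly within 2-fold. A probe set of their own stood for 33 of them. Of the 32 detected, 1 was at least 2-fold higher (Eaf2) and 1 at least 2-fold lower (Iws1), against 5.60% and 12.4% of all detected genes. Its median log2 ratio was -0.01, with 16 genes above 0 and 16 below. Eaf2, a partner of the ELL proteins, had 430.4 with triptolide and 14.2 without on its single probe set, at least 3.64-fold higher. Iws1, which works with the histone chaperone SPT6 during elongation, had 400.3 with triptolide and 1040 without (2.60-fold lower) and 171.2 with triptolide and 368.0 without on its other probe set, so both passed 2-fold.

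**Figure D3:**
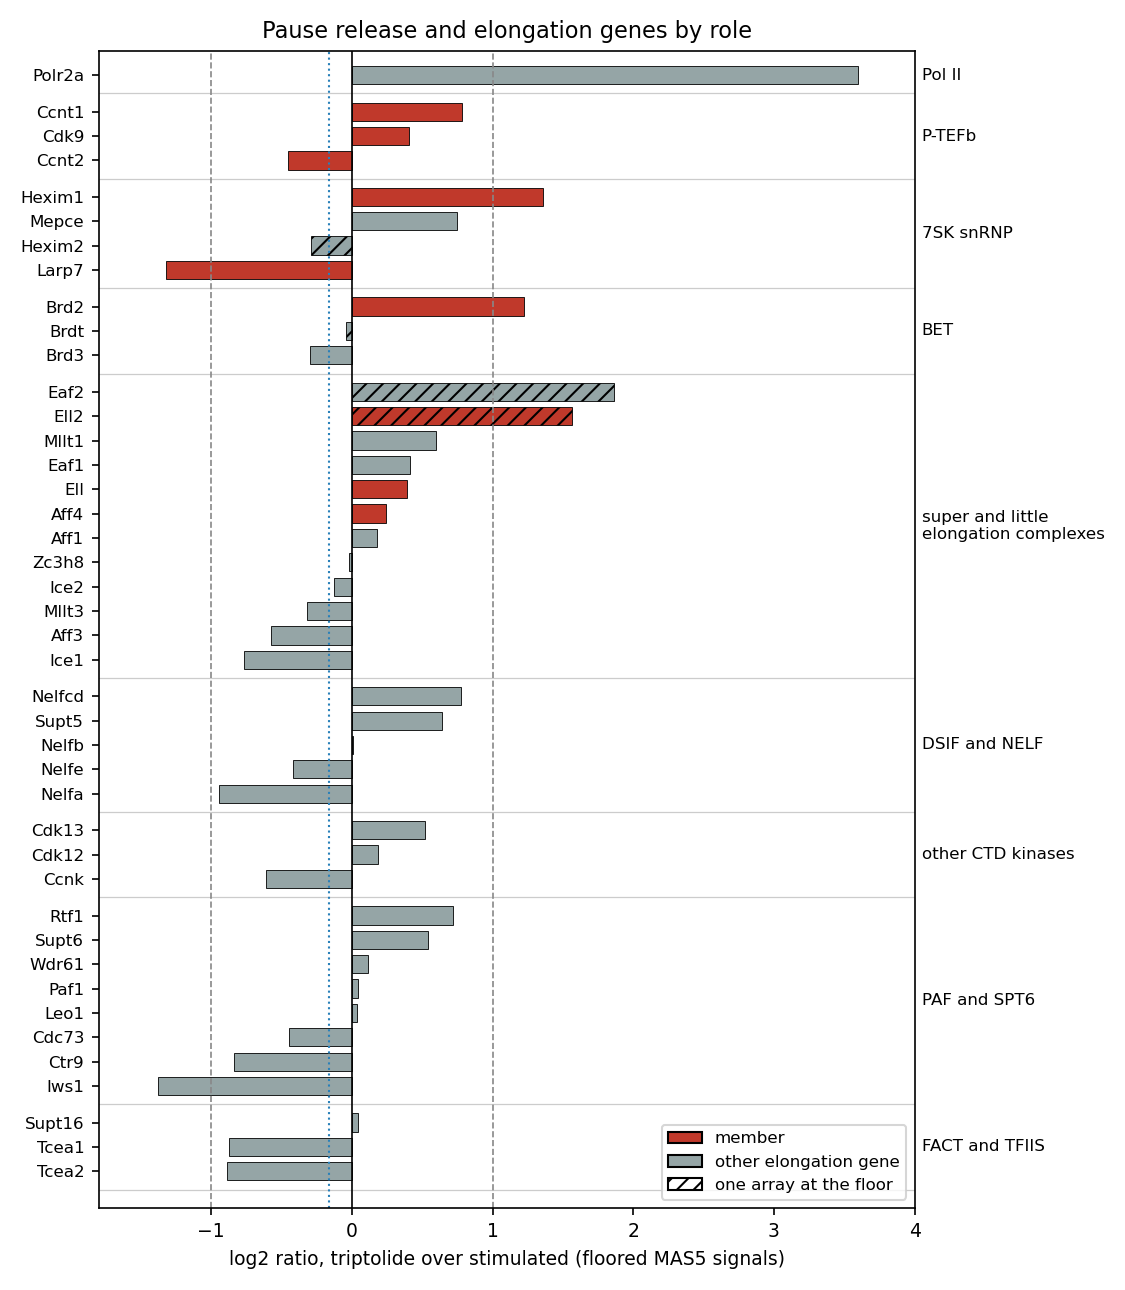
Log2 ratio (triptolide over stimulated, floored signals) of the representing probe set for the 9 genes (red) and the other elongation genes with Polr2a (grey), grouped by role, with hatching where 1 array was at the floor. The dashed lines mark 2-fold and the dotted line the median of all detected genes; Hexim1, Brd2, Ell2, Eaf2 and Polr2a lie beyond the right dashed line, and Larp7 and Iws1 beyond the left.

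By role, the substrates of P-TEFb in the pausing complex stayed within 2-fold. The DSIF subunit Supt5 had 5333 with triptolide and 3427 without (log2 ratio 0.64). The NELF subunits went both ways: Nelfcd had a log2 ratio of 0.78, Nelfb of 0.01, Nelfe of -0.42 and Nelfa of -0.95, each on a single probe set. Nelfa came closest to 2-fold, with 833.4 with triptolide and 1607 without. The highest and the lowest of them, Nelfcd and Nelfa, were 1.73 apart in log2 ratio. The other kinases of the Pol II tail were within 2-fold on their brightest probe sets, Cdk12 at 0.18, Cdk13 at 0.52 and their cyclin gene Ccnk at -0.61. The 5 Cdk12 probe sets measured on both arrays ran from -0.79 to 0.94, so no direction is read from them. Cdk13 was uncertain too, since another of its probe sets had 220.4 with triptolide and 896.5 without, a log2 ratio of -2.02.

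Further partners of the ELL and AFF proteins (Aff1, Aff3, Mllt1, Mllt3, Eaf1, Ice1, Ice2 and Zc3h8) lay between -0.77 and 0.60 in log2 ratio on their brightest probe sets. A dimmer Mllt3 probe set passed 2-fold downwards, with 507.5 with triptolide and 1027 without (-1.02). Aff3, Mllt1 and Ice2 had measured probe sets of both signs. In the PAF complex and with SPT6, Rtf1 (0.72) was highest and Ctr9 (-0.84) lowest after Iws1 on the brightest probe sets. Dimmer probe sets had 1.04 and 0.98 for Wdr61, and -0.45 and -0.05 for Ctr9. The TFIIS genes Tcea1 and Tcea2, whose products restart backtracked Pol II, had log2 ratios of -0.87 and -0.89, and the second Tcea1 probe set had 1208 with triptolide and 2767 without (-1.20). Polr2a, which encodes the Pol II subunit whose tail P-TEFb phosphorylates, is not counted in the list of 37. It had 8440 with triptolide and 696.6 without, a log2 ratio of 3.60, the widest of any gene in the plot by role.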

How the data were processed

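Total RNA of stimulated mouse T cells with and without triptolide was measured on 1 Affymetrix array each, grouped by the source names. The authors deposited linear MAS5 signal intensities, per the submitters' processing notes, with the version and scaling not given in the sources used here. The first 100 probe sets had a 2% trimmed mean of 2000.0 on both arrays, and all probe sets one of 339.7 with triptolide and 383.3 without. Of 45037 probe sets, 34945 had 1 gene symbol in the platform annotation, 932 several and 9160 none. For 34741 the Entrez number was found in the RefSeq table (GRCm38.p6), used for names. The floor was the 95th percentile of chemosensory receptor probe sets (118.39 with triptolide, 106.76 without; the higher was used). The values of every probe set of the 9 genes are given; of the elongation list, genes at least 2-fold are named with values and others by role. Genes of like pattern were not sought, since 2 arrays give 1 ratio per gene. Signals of all 22 probe sets are printed, of which 17 were above the floor on both arrays, 1 on a single array and 4 on neither. Calculations used Python 3.11.15, numpy 2.4.6 and pandas 2.3.3 and were tested on simulated data. The number of arrays limits the precision. The genes and lists were chosen with earlier results of these data known. Alternatives were 3 scalings, 2 other floors or none, a pseudocount of 32, 2 other choices of probe sets, and only genes of at least 4 times the floor. Protein sequences were not used here.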

Additional observations from a re-analysis of the deposited data

How the results depend on the processing

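All 9 genes kept the sign of their log2 ratio under the 10 alternatives that gave them a value. For some the margin was small: with the median over probe sets Ell was at 0.03 and Cdk9 at 0.08. Aff4 was at 0.05 when scaled on housekeeping genes. Single probe sets of Cdk9 and Ell differed in sign, so no direction is read for these genes. Hexim1 (1.17 to 1.81) and Larp7 (-1.51 to -1.01) stayed past 2-fold in all 10, and Ell2 (1.38 to 1.61) in the 9 in which it was kept. Brd2 lost its 2-fold call in 2 alternatives, at 0.73 when probe sets named as shared or variant were left out and at 0.98 with the median over probe sets. In this last alternative Aff4 reached 1.01, so the count of 3 higher genes held with Aff4 in place of Brd2. Between 2 and 3 of the 9 genes were higher and 1 lower in every alternative, 7 genes being kept when dim genes were left out. Of all detected genes, 3.85% to 9.56% were higher and 8.33% to 17.6% lower over these alternatives. The median over the 9 genes was 0.62 after quantile normalization, 0.21 when scaled on housekeeping genes and 0.90 with the median over probe sets. For the elongation list the median was 0.13 with arrays centred on their median, 0.20 after quantile normalization and -0.19 with housekeeping scaling, so its sign depends on the scaling. The number of its genes at least 2-fold lower was 5 of 32 with housekeeping scaling, against 17.1% of all detected genes. It was 2 of 32 without a floor (17.6% of all) and 2 of 33 with the median over probe sets (10.4%). None of 25 was higher among genes of at least 4 times the floor, where Eaf2 drops out, against 6.82% of all genes kept. The median of all detected genes was -0.05 with centred arrays, 0.00 after quantile normalization and -0.33 with housekeeping scaling. Without a floor 1041 genes in all were higher, against 610 with it. No paired analysis was possible because each condition has 1 array. Dim signals limit Ell2, Eaf2 and the second probe sets of Cdk9 and Aff4.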

Other observations

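Genes that act next to P-TEFb were read from 2 lists added after the data were seen. Of 11 genes whose products bind 7SK RNA or help to free P-TEFb from it, all 11 were detected, 1 passed 2-fold upwards and none downwards, against 5.60% and 12.4% of all detected genes, and the median log2 ratio was -0.09. The exception was Hnrnpa2b1, an RNA-binding protein that in human cells takes the place of P-TEFb on 7SK. Its brightest probe set had 18952 with triptolide and 4541 without (4.17-fold higher), and 2 further probe sets were 4.08-fold and 2.26-fold higher. The other one went the opposite way, with 6067 with triptolide and 11480 without, so the probe sets of Hnrnpa2b1 disagreed. The phosphatase genes Ppm1g and Ppp1ca had log2 ratios of -0.09 and 0.21, and Jmjd6, which encodes an oxygenase, had -0.89 and -1.07 on its 2 measured probe sets.

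Among 10 genes for phosphatases of the Pol II tail and their adaptors, 9 were detected and 1 was at least 2-fold higher (Rprd1a, log2 ratio 2.98), against 5.60% of all detected genes. None was at least 2-fold lower, against 12.4%. Its relative Rprd1b had -0.55. The phosphatases Ctdp1 and Ssu72, which remove tail phosphates, had log2 ratios of -0.40 and 0.39. The probe sets of Ctdsp2 disagreed, with 0.55 on the brightest and -1.16 and -1.24 on the others.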
